A study of Mus musculus with 24 samples.

Results

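The 39 genes described here are targets of the hypoxia-inducible factor (HIF), enzymes of glycolysis and genes of oxygen sensing, listed by name, with no measured value in the rule beyond the filter on low values. All 39 were among the 15390 genes of the deposited table, and all 39 passed the filter on low values, as did 13272 genes in all. They were measured in MC38 cells, a mouse colon carcinoma line, grown in DMEM with fetal calf serum. Guide RNAs against Ado, 2 of them, defined the cells that the labels give the genotype Ado KO, and 2 control guide RNAs defined the control cells. Each of these 4 guide populations was left untreated or received TNF, an inflammatory cytokine, for 1 h or 6 h. With 2 libraries per population and treatment, there were 6 groups of 4 libraries, 24 in all. A library name gives the guide and then the replicate, as in 2-1 for guide 2, replicate 1. No time is given for untreated cells in the labels and none kept untreated for 6 h were analysed here, so at 6 h the effects of TNF and of time in culture or handling cannot be told apart. Separate cultures are not stated for the replicates either, and p-values then measure only how far these libraries spread, which may be technical. Whether a guide population was a clone or a pool is not given in the labels.

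HIF is a pair of a labile alpha subunit, such as the product of Hif1a, and the stable partner encoded by Arnt. When oxygen is present, the prolyl hydroxylases encoded by Egln1, Egln2 and Egln3 mark the alpha subunit, the VHL ubiquitin ligase sends it for degradation, and the asparaginyl hydroxylase encoded by Hif1an blocks its transactivation domain. When oxygen is low, HIF binds promoters and enhancers and raises genes for glucose uptake, glycolysis, blood vessel growth, mitophagy and collagen maturation, and raises Egln1 and Egln3 as feedback. Since control acts largely on the protein, the level of Hif1a RNA is not a measure of HIF activity. Ado encodes a thiol dioxygenase that also uses molecular oxygen, acting on cysteamine and on proteins that begin with cysteine. Several members, among them Vegfa, Hk2 and Ddit4, are also regulated by growth factor, stress or inflammatory signals.

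Values are log2 CPM (tag counts scaled to a common library total), normalised by the authors, from 3' tag libraries. The depth was not stated. Judged from the spacing of low values it was 4260000 to 6630000 tags, and the floor of the table, -3.35, was reached by 617 to 1013 genes in each library. As a check of the TNF labels, the NF-kB target Nfkbia was at 7.34 to 7.71 log2 CPM in the untreated control libraries and at 10.42 to 10.89 after 1 h of TNF. Ado was at 5.00 to 5.53 log2 CPM over the libraries of all groups. Since a small edit in the coding sequence can leave 3' tags as they were, this is no check of the editing or of the genotype labels. Of 9 epithelial markers 3 had a row (Krt8, Krt18 and Cdh1), and together they came to 0.294 to 3.37 CPM per library, close to the lowest value, so the defining epithelial markers were at or near the floor in cells labelled as a colon carcinoma line. Immune markers (6 of 10 with a row) summed to 6.37 to 24.5 CPM, fibroblast markers (4 of 6) to 15.3 to 32.9 CPM and the endothelial marker with a row (1 of 5) to 0.0981 to 1.62 CPM. In these bulk libraries, fewer cells expressing a gene and less RNA per cell cannot be told apart.

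Together the 39 genes took 0.59 to 0.67% of the summed CPM of a library, a narrow range over the 24 libraries. The 15 genes of glucose uptake and glycolysis made up most of it, at 0.536 to 0.578% in untreated control cells and 0.496 to 0.524% in control cells after 6 h of TNF. The corresponding shares in Ado KO cells were 0.527 to 0.557% and 0.506 to 0.511%. Small structural RNAs moved in the other direction in the same libraries, from 0.266 to 0.308% of the sum in untreated control cells to 2.19 to 3.36% at 6 h, and from 0.286 to 0.392% to 1.45 to 1.71% in Ado KO cells. Mitochondrially encoded genes took 1.97 to 2.5% untreated, 2.55 to 3.58% at 1 h and 2.88 to 3.27% at 6 h in control cells, the untreated libraries lying below the others, and 2.05 to 2.4%, 1.84 to 2.48% and 2.36 to 2.62% in Ado KO cells, where the ranges overlapped. The part of both shares in the small falls of abundant members was not tested beyond the rescaling on protein-coding genes given with those genes. Of the 39 members, only Ankrd37 and Car9 had a library below 0 on the log2 scale, 10 libraries and 1 library respectively. Gapdh shares near-identical 3' sequence (at least 95% identity over 75 bases) with 105 other annotated genes, Eno1 with 2 and Gpi1 with 1, and the symbol Aldoa covers 2 annotated genes, so the levels of these 4 members are uncertain.

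After 1 h of TNF no member passed the threshold of a limma adjusted p below 0.05 over all genes, in either genotype. The share of all genes called at 1 h was 0.392% in control cells (0.332% higher, 0.0603% lower) and 0.256% in Ado KO cells (0.241% higher and 0.0151% lower). Limma gave an unadjusted p below 0.05 to 1 member higher and 3 lower in control cells, beside 1032 higher and 844 lower of all 13272 genes. In Ado KO cells 2 members were higher and 2 lower at that cutoff, beside 500 and 463 of all genes. The median log2 difference of the 39 members was -0.09 in control cells and -0.03 in Ado KO cells, beside -0.03 and -0.00 over all genes. The smallest adjusted p at 1 h was that of Ndrg1 in Ado KO cells, with a log2 difference of 0.42 ± 0.11 (SE; limma adjusted p = 0.124).

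At 6 h against untreated, 15 members were called in control cells, 3 higher and 12 lower, where 18% of all genes were called, 7.74% higher and 10.3% lower. Among Ado KO libraries 6 members were called, 3 higher and 3 lower, where 6.44% of all genes were called, 4.42% higher and 2.02% lower. The median log2 difference of the 39 members was -0.17 in control cells, beside -0.09 over all genes, and -0.08 in Ado KO cells, beside -0.05. The 6 h comparisons of control and Ado KO cells share no library. Ndrg1, Vegfa and Hk2 were higher in both genotypes, which is all of the members called higher in either. Ddit4, Plin2 and Egln2 were lower in both, 25% of the members lower in control cells and 100% of those lower in Ado KO cells. The same shares of shared calls were not computed over all genes, so they cannot be read as particular to the members. The sign was shared between genotypes by 13 of the 15 members called in control cells and by 32 of all 39 members, beside 71.5% of all genes tested.

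Among the signalling, transcription and pH genes, Ndrg1, Vegfa and Ddit4 changed most clearly. Ndrg1 (GRCm38 chromosome 15, 66929318 to 66969640, minus strand) encodes a stress-responsive protein of the NDRG family and is a widely used hypoxia marker. In untreated control cells it stood at 5.28, 5.19, 5.41 and 5.60 log2 CPM in libraries 1-1, 1-2, 2-1 and 2-2, and after 1 h of TNF at 5.35, 5.31, 5.66 and 5.76. After 6 h it stood at 6.98, 7.15, 6.94 and 7.07. Every 6 h library lay above every untreated and 1 h library of control cells. In Ado KO cells the values were 4.77, 4.90, 4.97 and 4.53 untreated, 5.07, 5.27, 5.19 and 5.32 at 1 h, and 7.01, 6.73, 7.01 and 6.95 at 6 h. Here the 3 treatments did not overlap at all, since the lowest 1 h library lay above the highest untreated library. The mean went from 5.37 ± 0.18 to 7.03 ± 0.10 (SD, n = 4) in control cells, a 3.17-fold rise (log2 difference 1.66 ± 0.11, SE; limma adjusted p = 1.12e-13). In Ado KO cells it went from 4.79 ± 0.19 to 6.92 ± 0.13 (SD, n = 4), a 4.39-fold rise (log2 difference 2.13 ± 0.11, SE; limma adjusted p = 3.89e-16). By guide, the rise was 1.83 and 1.498 for control guides 1 and 2, and 2.04 and 2.23 for Ado guides 1 and 2. The call held in every alternative computed, in both genotypes.

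Vegfa (chromosome 17, 46016993 to 46032369, minus strand) encodes the vascular endothelial growth factor that drives blood vessel growth. In control cells it was at 4.60, 4.36, 4.21 and 4.78 log2 CPM untreated (libraries 1-1, 1-2, 2-1 and 2-2), at 4.26, 4.10, 4.43 and 4.43 at 1 h, and at 4.89, 5.09, 5.21 and 5.09 at 6 h. The 6 h libraries lay above all others of control cells, the closest being untreated 2-2. The Ado KO libraries were at 4.59, 4.53, 4.30 and 4.33 untreated, 4.27, 4.21, 4.43 and 4.42 at 1 h, and 5.00, 4.89, 4.76 and 4.74 at 6 h. The 6 h libraries again lay above the others. The log2 difference was 0.58 ± 0.12 in control cells (SE; limma adjusted p = 0.000818) and 0.41 ± 0.12 in Ado KO cells (SE; limma adjusted p = 0.0341). The Ado KO call was lost in 5 of the 8 fits that leave out 1 library. The value was 0.36 (adjusted p = 0.128) without 6 h library 1-1, 0.40 without 6 h 1-2, 0.43 without 6 h 2-1, 0.37 without untreated 2-1 and 0.37 without untreated 2-2. With the replicate number as a block the adjusted p was 0.0505.

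Ddit4 (chromosome 10, 59949669 to 59951834, minus strand) encodes REDD1, a stress-induced inhibitor of mTORC1, and moved against Ndrg1 and Vegfa. In control cells it was at 4.29, 4.58, 4.99 and 4.87 log2 CPM untreated, at 4.13, 4.05, 4.85 and 4.99 at 1 h, and at 3.01, 2.63, 2.61 and 3.33 at 6 h (libraries 1-1, 1-2, 2-1 and 2-2). At 1 h the libraries of control guide 1 lay below those of guide 2, and the 6 h libraries of both guides lay below all of them. In the Ado KO groups it was at 4.92, 4.77, 4.54 and 4.85 untreated, 4.68, 4.63, 4.42 and 4.42 at 1 h, and 2.46, 3.17, 2.92 and 2.72 at 6 h, again with no overlap between the 6 h libraries and the rest. The fall was 3.45-fold in control cells (log2 difference -1.79 ± 0.19, SE; limma adjusted p = 1.06e-08) and 3.87-fold in Ado KO cells (log2 difference -1.95 ± 0.19, SE; limma adjusted p = 2.5e-09). By guide it was -1.61 and -1.96 in control cells and -2.03 and -1.88 in Ado KO cells. Both calls held in every alternative computed.

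Of the other 5 genes of this role, Ankrd37 passed the threshold and Kdm3a, Mxi1, Adm and Car9 did not. Ankrd37 encodes an ankyrin repeat protein and is a direct HIF target. It was read close to the floor, at -0.89, -0.44, 1.09 and 0.66 log2 CPM in untreated control cells, 0.18, -0.63, 0.35 and 0.15 at 1 h, and -0.99, -1.70, -3.35 and -0.32 at 6 h. Ado KO cells had it at 1.01, 0.78, 0.60 and -0.42 untreated, 0.81, 0.05, 0.61 and 0.44 at 1 h, and -1.76, 0.52, 0.79 and -0.32 at 6 h. Library 2-1 of control cells at 6 h was at the lowest value of the table, and the 6 h and untreated libraries overlapped in both genotypes. The log2 difference of -1.69 ± 0.59 in control cells (SE; limma adjusted p = 0.0437) was lost in 5 of 8 fits without 1 library, with a value from -2.11 to -1.08 and an adjusted p of up to 0.197. It was also lost without either guide, at -2.70 without guide 1 and -0.68 without guide 2, and with a pseudocount of 1, at -0.62. The value of -1.08 was the one without 6 h library 2-1, and the size of the change is therefore poorly determined. Kdm3a, a histone demethylase that itself needs oxygen, had log2 differences of -0.34 and -0.36 in control and Ado KO cells (limma adjusted p = 0.192 and 0.288). The MYC antagonist gene Mxi1 had -0.19 and -0.70 (0.67 and 0.139), the vasodilator peptide gene Adm 0.11 and 0.40 (0.748 and 0.295), and Car9, which encodes a surface carbonic anhydrase that acidifies the outside of hypoxic cells, 0.24 and 0.13 (0.684 and 0.898). Car9 was also read at a low level, from -0.00 to 2.13 log2 CPM over the 24 libraries.

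Of the 7 oxygen sensing genes, 3 were lower in control cells at 6 h and 1 of these was lower in Ado KO cells. Egln2, which encodes the prolyl hydroxylase PHD1, was the member called in both. In control cells it was at 6.31, 6.46, 6.30 and 6.30 log2 CPM untreated, 6.25, 6.19, 6.33 and 6.15 at 1 h, and 5.75, 5.84, 6.11 and 6.06 at 6 h. With Ado guides it was at 6.21, 6.21, 6.60 and 6.50 untreated, 6.30, 6.39, 6.53 and 6.25 at 1 h, and 6.00, 5.97, 5.86 and 6.16 at 6 h. The 6 h libraries lay below the untreated ones in both genotypes. The log2 difference was -0.40 ± 0.09 in control cells (SE; limma adjusted p = 0.00334) and -0.38 ± 0.09 in Ado KO cells (SE; adjusted p = 0.00935). The Ado KO call was lost without untreated library 2-1 (-0.31, adjusted p = 0.0672) and without 6 h library 2-1 (-0.33, adjusted p = 0.0579). By guide the change was -0.59 and -0.21 in control cells and -0.22 and -0.54 in Ado KO cells.

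Egln1, which encodes PHD2, the main hydroxylase for HIF in most cells, was at 5.43, 5.46, 5.44 and 5.68 log2 CPM in untreated control cells, 5.17, 4.97, 5.50 and 5.29 at 1 h, and 5.08, 5.05, 5.26 and 5.28 at 6 h. The Ado KO libraries were at 5.64, 5.72, 5.30 and 5.54 untreated, 5.38, 5.15, 5.54 and 5.18 at 1 h, and 5.52, 5.39, 5.31 and 5.33 at 6 h. The control 6 h libraries lay below the untreated ones, and the Ado KO libraries overlapped. The log2 difference at 6 h was -0.34 ± 0.11 in control cells (SE; limma adjusted p = 0.0319), lost in 5 of 8 fits without 1 library, and -0.16 ± 0.11 in Ado KO cells (SE; adjusted p = 0.496). Egln3, which encodes the strongly hypoxia-inducible PHD3, was at 3.88, 3.49, 3.56 and 4.36 untreated, 3.48, 3.61, 3.37 and 3.67 at 1 h, and 3.06, 3.61, 3.80 and 3.68 at 6 h in control cells. In the Ado KO groups it was at 4.03, 4.19, 3.92 and 4.43 untreated, 3.86, 3.75, 3.65 and 3.77 at 1 h, and 4.05, 4.02, 3.55 and 4.05 at 6 h. Its 6 h and untreated libraries overlapped in both genotypes, and it did not pass (log2 differences -0.28 and -0.23; limma adjusted p = 0.272 and 0.557).

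The subunit genes of HIF showed no shared movement. Hif1a was at 4.51, 4.61, 4.94 and 4.24 log2 CPM in untreated control cells, 4.95, 4.99, 5.04 and 4.69 at 1 h, and 5.06, 4.65, 4.47 and 4.67 at 6 h. Ado KO cells had it at 4.65, 4.51, 4.85 and 4.67 untreated, 4.19, 4.34, 4.19 and 5.02 at 1 h, and 4.30, 4.61, 4.93 and 4.52 at 6 h. All these groups overlapped with their untreated group. At 1 h the log2 difference of Hif1a was 0.34 ± 0.16 in control cells and -0.23 ± 0.16 in Ado KO cells (SE; limma adjusted p = 0.337 and 0.821), and at 6 h it was 0.14 and -0.08 (adjusted p = 0.602 and 0.868). Arnt went from 3.91 ± 0.10 to 3.47 ± 0.14 (SD, n = 4) in control cells at 6 h, a log2 difference of -0.44 ± 0.14 (SE; limma adjusted p = 0.0299). The Arnt difference in Ado KO cells was 0.08 (adjusted p = 0.842). The Arnt call was lost without untreated library 1-1 (-0.41, adjusted p = 0.0814), without untreated 2-1 (-0.42, 0.066), without 6 h library 1-2 (-0.37, 0.103), without either guide, and on both protein-coding scales. The ubiquitin ligase gene Vhl had -0.34 and -0.22 at 6 h, and Hif1an 0.07 and 0.09, none of them called.

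**Figure D1:**
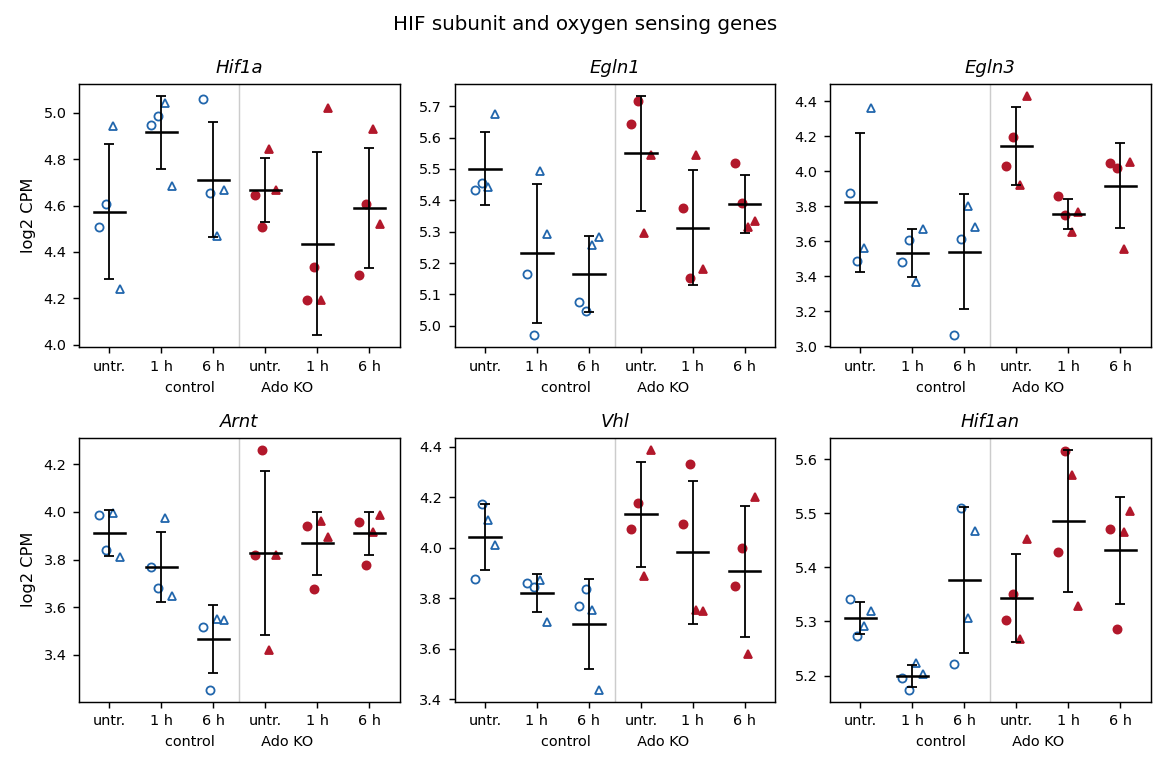
Level of the HIF subunit genes Hif1a and Arnt, of Egln1, Egln3 and Hif1an (hydroxylases) and of Vhl in log2 CPM (y axis) by group (x axis: untreated, TNF 1 h and TNF 6 h in control and Ado KO cells). Circles are libraries of guide 1 and triangles of guide 2, open for control and filled for Ado KO cells, the thick bar is the mean and the error bar the SD (n = 4). Of these genes Egln1 and Arnt were called at 6 h in control cells, and in Ado KO cells the 6 h libraries of both overlap the untreated ones.

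Of the 15 genes of glucose uptake and glycolysis, Hk2 was higher and 5 enzymes were slightly lower in control cells at 6 h, and only Hk2 was called in Ado KO cells. Hk2 (chromosome 6, 82725025 to 82774454, minus strand) encodes the inducible hexokinase that commits glucose to the pathway. In control cells it was at 5.22, 5.48, 5.46 and 5.57 log2 CPM untreated, 5.43, 5.20, 5.67 and 5.34 at 1 h, and 6.17, 6.12, 5.95 and 6.11 at 6 h. With Ado guides it was at 5.67, 5.39, 5.54 and 5.79 untreated, 5.45, 5.41, 5.67 and 5.70 at 1 h, and 5.99, 5.95, 6.09 and 6.06 at 6 h. The 6 h libraries lay above all untreated and 1 h libraries of their genotype. The log2 difference was 0.65 ± 0.10 in control cells (SE; 1.57-fold; limma adjusted p = 1.52e-05) and 0.42 ± 0.10 in Ado KO cells (SE; 1.34-fold; limma adjusted p = 0.00657). Hk1, the constitutive hexokinase gene, had -0.11 and -0.14 (adjusted p = 0.413 and 0.466). Pfkfb3, whose product makes the allosteric activator of phosphofructokinase, had 0.38 and 0.44 without passing (limma adjusted p = 0.1 and 0.115).

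The 5 lower enzymes in control cells all changed by less than 0.4 on the log2 scale. Pfkl, the liver-type phosphofructokinase gene, went from 5.03 ± 0.22 to 4.64 ± 0.10 log2 CPM (SD, n = 4; log2 difference -0.39, limma adjusted p = 0.0193). Gpi1, for glucose-6-phosphate isomerase, went from 8.14 ± 0.04 to 7.90 ± 0.07 (log2 difference -0.23, adjusted p = 0.0117 by limma over n = 4 libraries a group). Pkm, for pyruvate kinase, Ldha, for lactate dehydrogenase A, and Eno1, for enolase, each had a difference of -0.19 (limma adjusted p = 0.0197, 0.0197 and 0.0273). In Ado KO cells the differences of Pfkl, Gpi1, Pkm, Ldha and Eno1 were 0.09, -0.15, -0.12, -0.07 and -0.13, with limma adjusted p from 0.192 to 0.753. Without 1 library the call was lost in 3 of 8 fits for Pfkl (without untreated 1-1, untreated 1-2 or 6 h 1-1, adjusted p up to 0.0983), in 1 for Gpi1 (without 6 h 1-1, 0.0532), in 1 for Ldha (without untreated 2-2, 0.0673), in 4 for Pkm and in 6 for Eno1. Restricted to protein-coding genes and rescaled, Pkm, Ldha and Eno1 were no longer called, while Pfkl and Gpi1 were.

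The remaining 7 genes of this role were not called at 6 h in either genotype. The glucose transporter gene Slc2a1 had log2 differences of 0.03 in control cells and -0.00 in Ado KO cells, and the Ado KO sign turned on both protein-coding scales, as did that of P4ha2. The Ado KO sign of Pgk1 (-0.02) turned only when centred on the median (0.01). Pgk1 (phosphoglycerate kinase) was the steadiest member, with group means that spanned 0.055 on the log2 scale, at 8.38 to 8.62 log2 CPM over all libraries. Aldoa (aldolase), Tpi1 (triosephosphate isomerase), Gapdh (glyceraldehyde phosphate dehydrogenase), Pgam1 (phosphoglycerate mutase) and Pfkp (platelet-type phosphofructokinase) had differences of -0.10, -0.17, -0.19, -0.10 and -0.23 in control cells and -0.08, -0.14, 0.03, -0.07 and -0.32 in Ado KO cells. Gapdh, often taken as a reference gene, did not pass in either genotype (limma adjusted p = 0.132 and 0.914).

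Among the 3 genes of pyruvate, glycogen and lipid storage, Plin2 was lower in both genotypes. Plin2 (chromosome 4, 86648386 to 86670060, minus strand) encodes perilipin 2, a coat protein of lipid droplets. In control cells it was at 7.51, 7.50, 7.28 and 7.36 log2 CPM untreated, 7.45, 7.49, 7.37 and 7.34 at 1 h, and 7.10, 6.93, 7.02 and 6.85 at 6 h. The Ado KO libraries were at 7.05, 7.18, 7.38 and 7.46 untreated, 7.32, 7.35, 7.41 and 7.26 at 1 h, and 6.95, 6.74, 6.96 and 6.91 at 6 h. The 6 h libraries lay below all others of their genotype. The log2 difference was -0.44 ± 0.08 in control cells (SE; limma adjusted p = 0.000129) and -0.38 ± 0.08 in Ado KO cells (SE; adjusted p = 0.00144). Gys1, for muscle-type glycogen synthase, had -0.36 ± 0.12 in control cells (SE; limma adjusted p = 0.0379), lost in 5 of 8 fits without 1 library, and -0.08 in Ado KO cells (adjusted p = 0.805). Pdk1, for a pyruvate dehydrogenase kinase, had -0.39 and -0.17 and did not pass (limma adjusted p = 0.0592 and 0.592).

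**Figure D2:**
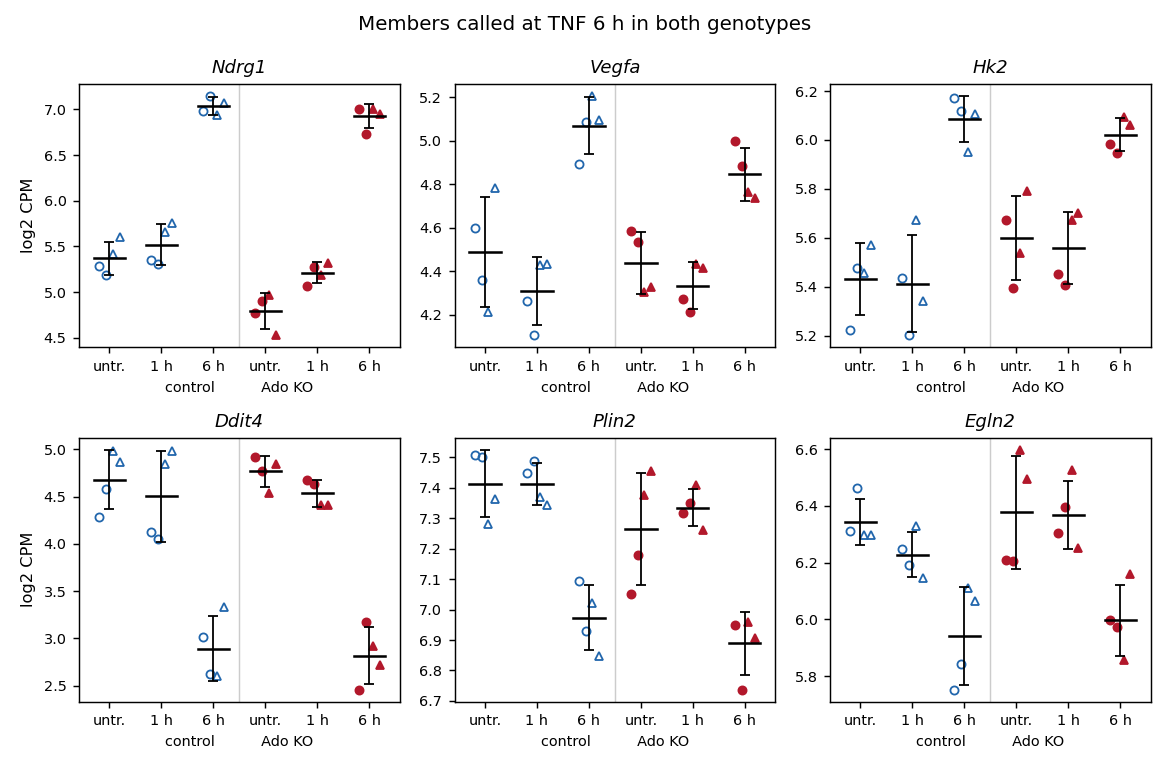
Level of the 6 members called at 6 h in both genotypes, in log2 CPM (y axis, scaled for each gene), by group (x axis). Circles are libraries of guide 1 and triangles of guide 2, open for control and filled for Ado KO cells, the thick bar is the mean and the error bar the SD (n = 4). Ndrg1, Vegfa and Hk2 lie higher at 6 h and Ddit4, Plin2 and Egln2 lower, while the 1 h libraries overlap the untreated ones except for Ndrg1 in Ado KO cells.

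None of the 3 genes of mitochondria and mitophagy and none of the 3 genes of collagen and disulfide processing was called at 6 h. The mitophagy receptor genes Bnip3 and Bnip3l had log2 differences of -0.03 and -0.02 in control cells, with a sign that turned under rescaling, and -0.20 and -0.28 in Ado KO cells (limma adjusted p = 0.685 and 0.108). Higd1a, for a small protein of the respiratory chain, had -0.06 and 0.02. P4ha1 and P4ha2, which encode catalytic subunits of the collagen prolyl hydroxylase, had 0.16 and -0.13 in control cells and 0.14 and -0.00 in Ado KO cells. Ero1l, for the oxidase that renews disulfide bonds in the endoplasmic reticulum, had 0.25 and 0.04 (limma adjusted p = 0.162 and 0.907).

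In control cells the count of 15 members called at 6 h was 9 without untreated library 1-2, 7 without guide 1 and 9 without guide 2, and on both protein-coding scales it was 8, 3 higher and 5 lower. The 7 members no longer called there kept their direction and had an adjusted p from 0.0515 to 0.122 by limma. Quantile normalised again and centred on the median, the log2 differences were -1.56 and -1.66 for Ankrd37 (-1.69 as deposited), -0.40 and -0.41 for Arnt (-0.44), -0.31 and -0.30 for Egln1 (-0.34), and -0.33 and -0.32 for Gys1 (-0.36). Pkm, Ldha and Eno1, each at -0.19 as deposited, had -0.12 and -0.15, -0.16 and -0.15, and -0.15 and -0.15. Over all genes, 1027 of 13272 were called higher and 1365 lower as deposited. The numbers were 687 and 730 of 10717 where only protein-coding genes were kept and quantile normalised again, which changes the genes tested together with the scale, and 1109 and 900 of 13329 when centred on the median. The Ado KO count of 6 was 2 without guide 2, namely Ndrg1 and Ddit4. For the fits without a library or guide the share of all genes called is not given here. Hk2 and Vegfa also lost their Ado KO calls without Ado guide 1, and Egln2 its control call without control guide 1. No member called at 6 h changed sign in any alternative.

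For the genes that changed in both genotypes, the promoter sequence was read from RefSeq (GRCm38.p6) and searched for the core of the hypoxia response element, ACGTG or GCGTG, on both strands. A CACGTG counts once on each strand, and a match may overlap a match of the other motif. Windows ran from 250 bases before to 50 bases after each start, and 36 of the 39 members had at least 1 window. A match to ACGTG or GCGTG was in 38 of 51 windows of the members (74.5%) and in 14380 of all 32851 windows (43.8%). Counted whether or not the other motif was present, ACGTG was in 52.9% of the members' windows and 19.6% of all, and GCGTG in 52.9% and 32.4%. HIF targets were chosen for the list by name, so a higher share may follow from that choice and is no result of these data. A gene with several windows is counted once for each. A match describes the letters in the window and shows no binding. The sequences shown are those of 1 glycolytic gene that rose, 1 growth factor gene that rose and both a stress and a lipid droplet gene that fell, printed 5′ to 3′ on the minus strand up to the start, with matches and their reverse complements in capitals.
Hk2, chr6:82774455-82774704: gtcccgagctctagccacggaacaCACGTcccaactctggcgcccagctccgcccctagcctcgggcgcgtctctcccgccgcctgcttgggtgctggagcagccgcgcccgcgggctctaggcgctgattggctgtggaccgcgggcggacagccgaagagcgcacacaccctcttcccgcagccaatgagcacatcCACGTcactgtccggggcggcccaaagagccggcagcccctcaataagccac
Vegfa, chr17:46032378-46032627: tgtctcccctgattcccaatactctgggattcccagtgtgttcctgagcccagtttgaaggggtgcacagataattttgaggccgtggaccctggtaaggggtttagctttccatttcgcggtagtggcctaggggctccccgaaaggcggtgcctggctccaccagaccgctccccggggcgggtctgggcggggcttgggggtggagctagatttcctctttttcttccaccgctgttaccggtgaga
Ddit4, chr10:59951835-59952020: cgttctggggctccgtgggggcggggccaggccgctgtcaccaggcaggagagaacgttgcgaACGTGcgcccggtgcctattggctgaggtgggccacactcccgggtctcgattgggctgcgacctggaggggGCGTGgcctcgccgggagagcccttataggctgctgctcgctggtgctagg
Plin2, chr4:86670061-86670309: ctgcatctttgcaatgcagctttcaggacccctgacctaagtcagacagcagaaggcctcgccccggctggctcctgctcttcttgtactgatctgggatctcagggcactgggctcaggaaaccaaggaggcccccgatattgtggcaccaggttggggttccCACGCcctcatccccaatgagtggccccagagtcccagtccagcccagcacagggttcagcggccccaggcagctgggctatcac

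Hk2 held 2 matches to ACGTG, read on the opposite strand 226 and 52 bases before the start. The printed Vegfa sequence held none. Its 2 RefSeq windows held 1 ACGTG and 1 GCGTG, both in the same window. Whether that was the other window, or the printed one after its start, was not resolved. Ddit4, which fell, held ACGTG at 123 bases and GCGTG at 51 bases before the start. Plin2, which also fell, held GCGTG on the opposite strand at 85 bases, and its 2 further matches to ACGTG lie across or after the start. Egln2, which fell in both genotypes too, is not printed, and its 2 windows held 3 matches to ACGTG and 4 to GCGTG. Matches were thus present in genes that rose and in genes that fell. Bnip3l, Ero1l and Ndrg1 had no window in the table.

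Setting 6 h against 1 h of TNF compares treated cells only. In control cells 6 members differed between 6 h and 1 h, 3 higher and 3 lower, where 7.68% of all genes were called (4.82% higher and 2.86% lower). These were Ndrg1 (1.51), Vegfa (0.76) and Hk2 (0.67) as higher and Ddit4 (-1.61), Plin2 (-0.44) and Gpi1 (-0.22) as lower. With Ado guides 8 differed, 3 higher and 5 lower, where 7.77% of all genes were called (4.05% higher and 3.72% lower). Ndrg1 (1.71), Vegfa (0.51) and Hk2 (0.46) were higher, and Ddit4 (-1.72), Plin2 (-0.45), Egln2 (-0.37), Gpi1 (-0.24) and Pkm (-0.22) lower. These comparisons share the 6 h libraries with those against untreated cells. Gpi1 lost its call in control cells in 5 of 8 fits without 1 library (adjusted p up to 0.121) and in Ado KO cells without 1 h library 1-2 (-0.23, adjusted p = 0.0552). Its control call was also lost without control guide 2, with no variance trend and on both protein-coding scales (limma adjusted p = 0.116 and 0.0862). Gpi1, Egln2 and Pkm lost their Ado KO calls when either Ado guide was left out. Pkm also lost its call with no variance trend (limma adjusted p = 0.0562). Egln2 lost its Ado KO call without 1 h library 2-1 (-0.32, adjusted p = 0.0616) or 6 h library 2-1 (-0.32, adjusted p = 0.0576), and the Ado KO count was 3 without guide 1.

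Between genotypes at the same treatment, 1 member was called in untreated cells, none at 1 h and 1 at 6 h. The share of all genes called was 0.249% in untreated cells (0.0678% higher and 0.181% lower in Ado KO), 1.06% at 1 h (0.527% and 0.535%) and 1.02% at 6 h (0.422% and 0.595%). In untreated cells Ndrg1 was lower in Ado KO than in control cells, at 4.53 to 4.97 against 5.19 to 5.60 log2 CPM, with no overlap (log2 difference -0.58 ± 0.11, SE; limma adjusted p = 0.0162). The call was lost without untreated control library 2-2 (-0.51, adjusted p = 0.0714) and without untreated Ado KO library 2-2 (-0.49, adjusted p = 0.0826). It was also lost without control guide 2 (-0.44, adjusted p = 0.0728), without Ado guide 1 (-0.62, 0.0613), without Ado guide 2 (-0.54, 0.188) and with no variance trend (limma adjusted p = 0.0697). After TNF the Ndrg1 difference was -0.31 at 1 h and -0.11 at 6 h (limma adjusted p = 0.176 and 0.794), with overlapping libraries at both times. At 1 h an unadjusted p below 0.05 from limma was reached by 3 of 39 members higher and 3 lower in Ado KO cells. Of all 13272 genes 1124 were higher and 970 lower at that cutoff, a similar share. A fit with fixed guide terms called 2 members at 1 h, 1 in each direction. The share of all genes called in that fit is not given here, so the count cannot be read as particular to the members.

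Bnip3l, which encodes the mitophagy receptor NIX, was lower in Ado KO cells at 6 h. Its control libraries were at 5.06, 4.88, 4.89 and 5.13 log2 CPM untreated, 5.22, 5.00, 4.97 and 5.20 at 1 h, and 5.00, 5.03, 4.93 and 4.92 at 6 h. The Ado KO libraries were at 4.98, 4.82, 4.74 and 4.78, at 4.68, 4.60, 4.81 and 4.76, and at 4.73, 4.38, 4.66 and 4.40. The genotypes overlapped when untreated, and did not overlap at 1 h or 6 h. The log2 difference was -0.16 untreated, -0.38 at 1 h and -0.43 ± 0.11 at 6 h (SE; limma adjusted p = 0.739, 0.0741 and 0.0457). The call at 6 h was lost in 7 of the 8 fits without 1 library (adjusted p up to 0.181), held only without Ado KO 6 h library 1-1, and was lost without any of the 4 guide populations. That the difference changed with treatment was not shown (interaction at 6 h -0.26, limma adjusted p = 0.787).

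A comparison of genotypes on the mean of the 3 treatments, chosen after the values were seen, called 2 members, both lower in Ado KO cells, where 3.16% of all genes were called, 1.79% higher and 1.38% lower. Bnip3l differed by -0.32 ± 0.07 (SE; limma adjusted p = 0.00468), with means of 5.03 and 5.00 log2 CPM for control guides 1 and 2 and 4.70 and 4.69 for Ado guides 1 and 2. Ndrg1 differed by -0.33 ± 0.07 (SE; limma adjusted p = 0.00527), with 5.88 and 6.07 for the control guides and 5.62 and 5.66 for the Ado guides. Both calls held in each of the 24 fits without 1 library. Without Ado guide 1 neither was called, without Ado guide 2 Ndrg1 alone was, and without control guide 2 the count was 10. The share of all genes called in those fits is not given here, so the rise to 10 cannot be read as particular to the members. With only 2 guides per genotype, a difference between guide populations and an effect of Ado cannot be told apart. Pfkfb3 was higher by 0.36 ± 0.11 without passing (SE; limma adjusted p = 0.0593), and passed when the guide populations were fixed terms (0.0155), a fit whose error comes from replicates within a guide. Bnip3 differed by 0.26, opposite in sign to its relative Bnip3l, and did not pass (limma adjusted p = 0.351).

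**Figure D3:**
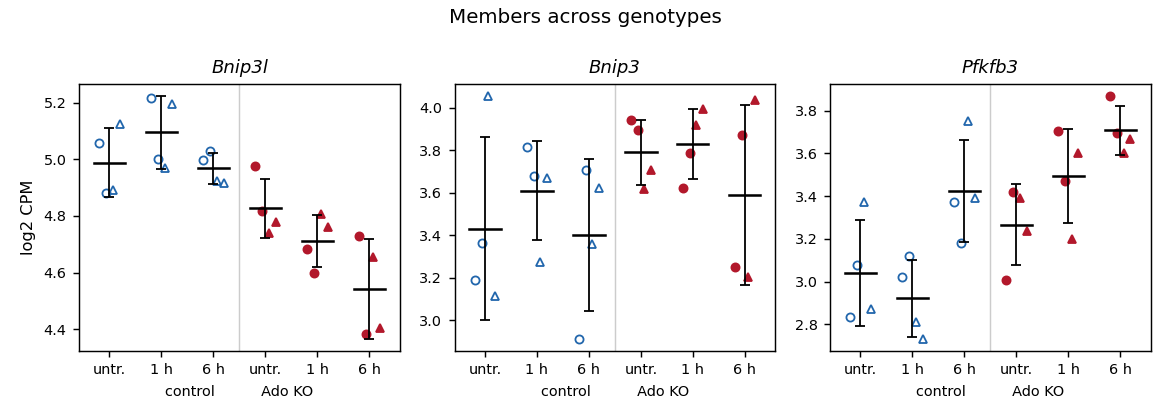
Level of Bnip3l, Bnip3 and Pfkfb3 in log2 CPM (y axis, scaled for each gene) by group (x axis: untreated, TNF 1 h and TNF 6 h in control and Ado KO cells). Circles are libraries of guide 1 and triangles of guide 2, open for control and filled for Ado KO cells, the thick bar is the mean and the error bar the SD (n = 4). Bnip3l is lower in Ado KO cells at 1 h and 6 h without overlap, while the genotypes overlap in every treatment for Bnip3 and overlap untreated and at 6 h for Pfkfb3.

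The test of whether the TNF response differed between genotypes called no member at 1 h or at 6 h, where 0% and 0.347% of all genes were called. At an unadjusted p below 0.05 limma had 1 member higher and 2 lower at 1 h, beside 628 and 676 of all 13272 genes. At 6 h it had 3 members higher and 0 lower, beside 443 and 450 of all genes. The 3 members at 6 h were Ndrg1 (0.47, 95% interval 0.16 to 0.78; limma adjusted p = 0.38), Pfkl (0.48; adjusted p = 0.452) and Arnt (0.52; adjusted p = 0.609). Pfkl and Arnt, called lower in control cells and not in Ado KO cells, were therefore not shown to differ in response. Hif1a at 1 h, with opposite signs in the genotypes, had an interaction of -0.57 ± 0.23 (SE; limma adjusted p = 0.453).

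Related genes outside the 39 were counted on 3 further lists. Of 28 other HIF target genes tested, 4 were higher and 3 lower in control cells at 6 h (25%, beside 18% of all genes), with a median log2 difference of 0.09, beside -0.09 over all genes. Wsb1, for a ubiquitin ligase subunit, rose by 0.72, and Nos2, for inducible nitric oxide synthase, by 3.70 from a mean of -2.94 near the floor, where the size is not well defined. Narf fell by 1.21. Of the same 28 genes 4 were higher and 1 lower in Ado KO cells (17.9%, beside 6.44%), with Nos2 at 3.57, Wsb1 at 0.56 and Narf at -1.11. Of 27 other glycolysis and pyruvate genes 5 were lower and 0 higher in control cells by limma, a share of 18.5% that is near that of all genes. At an unadjusted p below 0.05 by limma 6 were lower, beside 2578 of all 13272 genes. Taldo1 was at -0.23, Pdk3 at -0.35, Pfkm at -0.56 and Ldhb at -0.57. Ado KO cells had 2 lower (7.41%, also near the share of all genes), Taldo1 (-0.26) and Hkdc1 (-1.15). Of 18 other oxygen sensing and HIF pathway genes, Hsp90aa1 (0.58) and Kdm5a (0.40) were higher and Rack1 (-0.25) lower in control cells (16.7%, again near the share of all genes). In Ado KO cells 0 passed by limma. There 3 were lower at an unadjusted p below 0.05, beside 1277 of all 13272 genes. Between genotypes at 1 h, 2 of these 18 genes were called (11.1%, beside 1.06% of all genes), both lower in Ado KO cells. They were Eloc (-0.94, limma adjusted p = 0.032) and Os9 (-0.58, limma adjusted p = 0.0497, close to the threshold). How genes of the further lists fare under the alternatives was not examined.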

How the data were processed

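Total RNA of 24 samples was made into QuantSeq 3' mRNA libraries, per the labels' protocols. FastQC, cutadapt 1.7, HISAT2, featureCounts, Subread and limma, with the builds GRCm38 and mm10, are named in the submitters' processing notes, without order or role. The authors deposited 1 table of log2 CPM values, already normalised. The unit and the normalisation are inferred from the values, since every library sums to between 998899 and 999014 once unlogged and shares the lowest value of -3.349 and the highest of 17.04, as after quantile normalisation. Depth was estimated from the spacing of low values, taking whole tags between counts of 10 and 20 and an offset of 0.5. There were 0 missing values, 0 identical pairs of libraries and 0 columns without a sample. For control guide 2 at 1 h, titles and column names give opposite replicate numbers. Columns were joined by the description, and numbers follow the titles.

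The filter asked for a log2 value of 0 or more in 4 or more libraries and kept 13272 genes. The model (limma 3.58.1, statmod 1.5.0, R 4.3.3) had 6 group means, a random block for the 4 guide populations (correlation 0.0485) and a variance trend. Tests were two-sided, and called means a Benjamini-Hochberg adjusted p below 0.05 over all genes kept. A fold change is on the deposited log2 scale. Similar 3' ends (95% identity over 75 of the last 400 bases) were found with blastn 2.17.0 in GENCODE M21, which also gave positions. Figures used matplotlib 3.10.9. The fit was tested on simulated data. Alternatives were another filter, a pseudocount of 1, other blocks and scalings, and each library or guide population left out.

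The members, roles, lists and tests were chosen with earlier results of these data known. Values in every library are given for members called with a log2 difference of 0.5 or more and for Hif1a, Egln1 and Egln3, and those of Plin2, Egln2 and Bnip3l were added after their values were seen. Of the further lists, up to 4 called genes per comparison with the smallest adjusted p are named, and Hkdc1 is among them in Ado KO cells. A gene of those lists is not reported here. Same-numbered replicates were not treated as pairs, since their deviations correlated at -0.158 to 0.0543 between treatments.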

Additional observations from a re-analysis of the deposited data

Results flagged for a closer look

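Among 48 groups of 4 libraries, those of the 8 members whose values are given for every library by rule, 2 held a library far from the other 3, with a gap above 0.829 of the group's range. By chance about 1 group in 20 would. Egln1 was at 5.675 in untreated control library 2-2, against 5.433 to 5.456 in the other 3 (gap 0.904 of the range), and without that library its call at 6 h in control cells was lost. Egln3 was at 3.554 in Ado KO library 2-1 at 6 h, against 4.016 to 4.053 in the other 3 (gap 0.926 of the range).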

How the results depend on the processing

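For the 37 calls of single members, 704 alternative values were computed, of which 582 kept the call, 122 lost it and 0 reversed the sign. The cause of the changes was not tested. Counts of members called moved as follows. Except on both protein-coding scales in control cells at 6 h, the share of all genes called is not given for these fits. Those moves therefore cannot be set beside all genes. In control cells at 6 h against untreated the count of 15 was 8 on both protein-coding scales, 7 without control guide 1, 9 without control guide 2 and 9 to 13 with 1 library left out. In Ado KO cells at 6 h the count of 6 was 2 without Ado guide 2 and 4 to 6 with 1 library left out. At 1 h in Ado KO cells it was 1 instead of 0 with guide populations as fixed terms. For 6 h against 1 h, Ado KO cells gave 3 without guide 1, 5 without guide 2 and 7 to 9 with 1 library left out, and control cells 5 to 7. Between genotypes untreated the count of 1 was 0 with no variance trend, without Ado guide 1 and without Ado guide 2, and 0 to 1 with 1 library left out. Without control guide 2 it was 1 again, but not Ndrg1. At 1 h the count of 0 was 2 with guide populations as fixed terms, 1 without control guide 1, 1 without control guide 2, and 0 to 2 with 1 library left out, the 2 being without Ado KO library 2-2. At 6 h the count of 1 was 0 with no variance trend, with protein-coding genes quantile normalised again, without control guide 1 and without either Ado guide, and 0 to 1 with 1 library left out. On the mean of the 3 treatments the count of 2 was 10 without control guide 2, 0 without Ado guide 1, 1 without Ado guide 2 and 2 to 3 with 1 library left out.

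With the replicate block, 14 members were called at 6 h in control cells, 5 in Ado KO cells, and 6 and 10 between 6 h and 1 h in control and Ado KO cells. The share of all genes called under this block is not given here either, so these counts cannot be set beside all genes. Replicate numbers were not shown to pair libraries, so a call lost under this block is not a weaker effect. Depth limits low members such as Ankrd37 and Car9.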
